A study of Mus musculus with 6 samples.

Results

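The S phase and mitosis genes described here are 36 genes that cells need to make deoxynucleotides, copy DNA and divide. They were chosen by name, with earlier results of these data known, and found through their Ensembl identifiers. All 36 of 36 were present among the 22962 genes of the deposited table. RNA sequencing had been done on alveolar macrophages, which clear particles and surfactant from the airspaces, of C57BL/6 mice. There were 3 bleomycin libraries (replicates 1, 2 and 5), from mice given bleomycin into the trachea 2 weeks earlier, and 3 saline libraries (replicates 1, 2 and 3), from mice given saline by the same route. Bleomycin is a drug that breaks DNA and is widely used to model lung fibrosis. In both groups the cells were washed out of the airways, freed of red cells and kept if they stuck to a plastic dish within a short incubation, so adherent cells other than macrophages could also be kept. The labels give neither the age of the mice nor whether each library came from a separate animal, so the spread behind each p-value is that between libraries and may in part be technical.

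A dividing cell first switches on the E2F transcription factors, which act on the enzymes of nucleotide synthesis and the replication machinery, and later the genes of mitosis, which are bound by complexes that include B-Myb and FoxM1. Cyclins bound to cyclin-dependent kinases drive each step, and the checkpoint proteins at the kinetochore hold anaphase back until every chromosome is attached. Alveolar macrophages are long-lived cells that keep up their own number in the lung by slow division. Cells recruited from blood monocytes join them after injury.

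Most of the 36 genes had a slightly lower mean in bleomycin libraries than in saline libraries, and 4 of them passed the test. Of the 36 genes, 34 had a negative log2 fold change (bleomycin over saline) and 2 a positive one, with a median of -0.31, against a median of -0.01 over the 13512 genes tested. Of all genes tested 51.3% had a negative log2 fold change. The range ran from -0.66 for Bub1b to 0.47 for Cenpa. Without saline replicate 2 these genes were at -0.37 and 0.25, and the range ran from -0.67 for Cdc20 to 0.45 for Ccne1. Values are normalized read counts, tests are limma's moderated test on log2(value + 1), and a gene passed if its p, adjusted over all 13512 genes by the Benjamini-Hochberg method, was under 0.05. By this rule 4 of the 36 genes fell (Kif23, E2f1, Tpx2 and Top2a), 0 rose and 32 did not pass. Over all genes tested 3.9% were called lower and 9.76% higher, so the 4 called members, 11.1% of the list, stand beside a background of 3.9%. All 36 genes passed the filter on low values, with at least 152 reads in every library. At an unadjusted p under 0.05, 17 members were lower and 1 was higher, against a background of 10.3% of genes lower and 15.6% higher. Among the 7966 tested genes whose mean level lay within the range of the 36 genes, 344 were called lower and the median was -0.03. Bleomycin replicate 1 stood apart from the other bleomycin libraries in a trend with gene length, and without it the median over the 36 genes was -0.30 and 3 genes were called lower (Pcna, E2f1 and Kif23), with 629 of 13982 genes called lower in all. The count of the 36 genes called lower was 3 without saline replicate 1, 1 without bleomycin replicate 2, saline replicate 2 or saline replicate 3, and 0 without bleomycin replicate 5. Calls over all genes fell too. Those lower numbered 361 of 13999 without saline replicate 1, 333 of 13965 without saline replicate 2 and 335 of 13981 without saline replicate 3. They numbered 204 of 13830 without bleomycin replicate 2 and 182 of 13747 without bleomycin replicate 5, against 527 of 13512 with all libraries. In RNA from a mixture of cells, fewer cycling cells and less of these transcripts per cell cannot be told apart.

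In 19 of the 36 genes every bleomycin library lay below every saline library, which was the case for 13.6% of all genes tested. In 1 gene, Cenpa, every bleomycin library lay above every saline library, which was the case for 17.2% of all genes, and in the other 16 the groups overlapped.

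**Figure D1:**
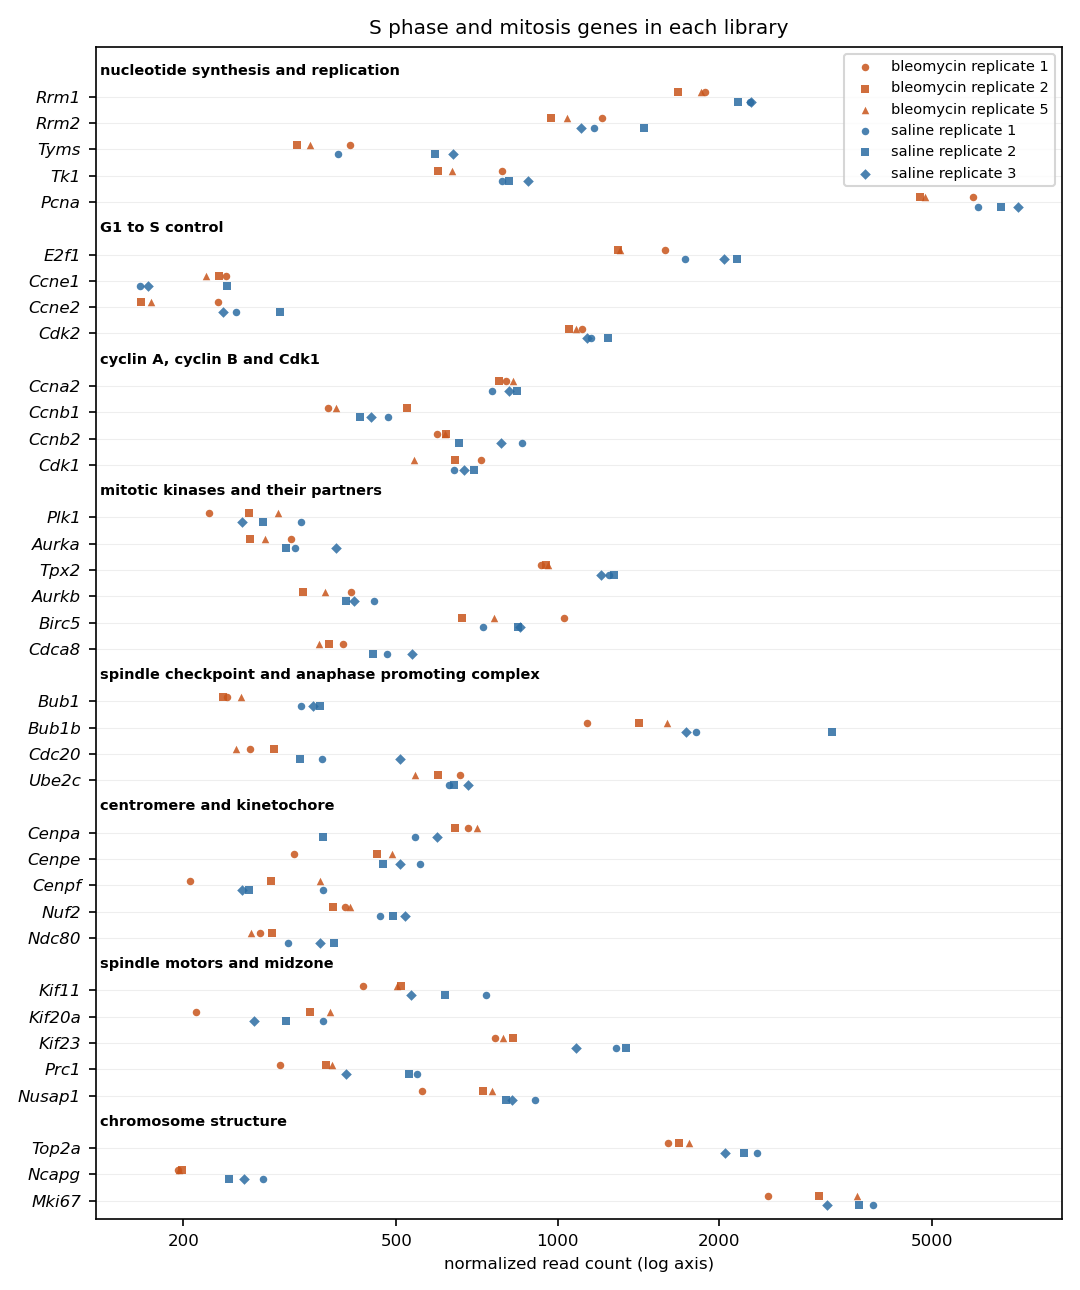
Normalized read count (log axis) of each of the 36 genes in the 3 bleomycin libraries (orange, upper points of each row) and the 3 saline libraries (blue, lower points), grouped by role. The groups do not overlap in 20 genes, and in 19 of these the bleomycin libraries are the lower ones.

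Per kilobase of annotated exon, Pcna, the sliding clamp that holds DNA polymerases on the template, was the most abundant, at 2158 ± 280.2 in bleomycin libraries and 2783 ± 238 in saline libraries (normalized reads per kb, mean ± SD, n = 3 each). E2f1 came next in both groups, at 442 ± 51.3 in bleomycin libraries and 626 ± 71.2 in saline libraries. Ccnb2, Rrm2 and Bub1b followed, in an order that differed between the groups. Their levels per kb were 398 ± 7.78, 388 ± 44.1 and 324 ± 55.2 in bleomycin libraries and 499.6 ± 66.5, 448 ± 65.1 and 529 ± 199 in saline libraries. Mki67, the gene of the proliferation marker Ki-67, was the sixth in both groups, at 304 ± 57.3 in bleomycin libraries and 355 ± 35.4 in saline libraries. Cenpf, which encodes a large kinetochore protein and has the longest exon sequence of the 36 genes (15433 bp), was the lowest per kb, at 18.5 ± 5.02 in bleomycin libraries and 19.2 ± 3.87 in saline libraries. In saline libraries 21 of the 36 genes lay above the median of the tested genes, 121.7 per kb. The length used joins all annotated exons of a gene and can exceed that of any single transcript. The order of genes therefore holds for this measure only and may differ per length of the transcripts present.

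Kif23 had the lowest adjusted p of the 36 genes. It encodes a kinesin motor of centralspindlin, which bundles microtubules between the separating chromosomes and is needed for cytokinesis (ENSMUSG00000032254, chr9:61915905-61946774, GRCm38, minus strand). It had 764, 826 and 789 normalized reads in bleomycin replicates 1, 2 and 5, against 1283, 1339 and 1079.6 in saline replicates 1, 2 and 3. The highest bleomycin library was well below the lowest saline library, and Kif23 fell by 35.5% (log2 -0.63 ± 0.13 SE, limma adjusted p = 0.0124). Leaving out each library in turn gave adjusted p-values of 0.014 to 0.061, and the call was lost without bleomycin replicate 5.

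E2f1 encodes the founding activator of the E2F family, which turns on S phase genes (ENSMUSG00000027490, chr2:154559407-154569892, minus strand). It had 1582, 1295 and 1308 normalized reads in bleomycin replicates 1, 2 and 5, against 1724, 2157 and 2045 in saline replicates 1, 2 and 3. The groups did not overlap, but bleomycin replicate 1 came close to saline replicate 1. E2f1 fell by 29.3% (log2 -0.50 ± 0.14 SE, limma adjusted p = 0.0434). The call was lost on leaving out bleomycin replicate 2 (adjusted p = 0.179), bleomycin replicate 5 (0.178), saline replicate 2 (0.12) or saline replicate 3 (0.122).

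Tpx2 and Top2a fell by similar amounts. Tpx2 activates the kinase Aurora A and helps build the spindle (ENSMUSG00000027469, chr2:152847964-152895321, plus strand). It had 929, 953 and 959 normalized reads in bleomycin replicates 1, 2 and 5, against 1248, 1272 and 1206 in saline replicates 1, 2 and 3. Each group was tight and the groups lay apart, and Tpx2 fell by 23.7% (log2 -0.39 ± 0.11 SE, limma adjusted p = 0.0448). Top2a, the type II topoisomerase that untangles newly copied chromosomes (ENSMUSG00000020914, chr11:98992943-99024189, minus strand), had 1605, 1684 and 1758 normalized reads in bleomycin replicates 1, 2 and 5. In saline replicates 1, 2 and 3 it had 2358, 2231 and 2055, so the groups did not overlap. Top2a fell by 23.9% (log2 -0.39 ± 0.11 SE, limma adjusted p = 0.0456). Both calls were lost on leaving out any 1 of the 6 libraries, with adjusted p-values of 0.057 to 0.174 for Tpx2 and 0.063 to 0.171 for Top2a. Of the 4 genes that fell, Kif23 alone also passed with TMM rescaling of the libraries or with no intensity trend, and Kif23 and E2f1 with no filter on low values.

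Promoter sequence was examined because these genes are known to share binding sites near their start. Promoters of mitosis genes often hold the cell cycle genes homology region (CHR, TTTGAA or TTCGAA), bound by the MuvB core shared by the repressing DREAM complex and the activating B-Myb and FoxM1 complexes, and CCAAT boxes, bound by NF-Y. In the 250 bases before the gene start, RefSeq (GRCm38.p6) gave windows for 31 of the 36 genes, 32 windows in all. Of the 32 windows 11 held no annotated exon, and the rest overlapped one. The windows of E2f1, Nusap1 and Prc1 lay within annotated exons over all 250 bases. Prc1 had more than 1 window, and its windows overlap each other and were counted separately. Aurkb, Kif20a, Ccna2, Tpx2 and Ccne2 had no window in the table. On either strand, a CHR was found in 10 of the 32 windows (31.2%), against 17.1% of all 32851 windows. A CCAAT box was found in 24 of the 32 windows (75%), against 33.8% of all windows. The 10 windows with a CHR all held a CCAAT box as well, a combination found in 6.02% of all windows. An E2F word (TTTGGCGC, TTTCGCGC, TTTGCCGC or TTTCCCGC) was found in 2 of the 32 windows (6.25%), against 1.86% of all windows. No word searched contains another, and a match describes letters, not a bound site. The windows of 4 genes are shown 5′ to 3′ on the gene's strand, with CHR and CCAAT words of either strand in capitals, and were picked with the values known from 11 windows that hold no annotated exon. Kif23 and Top2a are shown as genes that fell, and Mki67 and Ccnb2 as well-known proliferation genes that did not pass. Among windows without an annotated exon that are not shown, those of Birc5, Nuf2 and Tyms held neither a CHR nor a CCAAT box. Those of Cenpf and Rrm1 held CCAAT boxes only, and those of Bub1b and Kif11 held both.
Kif23 (chr9:61946800-61947049, minus strand): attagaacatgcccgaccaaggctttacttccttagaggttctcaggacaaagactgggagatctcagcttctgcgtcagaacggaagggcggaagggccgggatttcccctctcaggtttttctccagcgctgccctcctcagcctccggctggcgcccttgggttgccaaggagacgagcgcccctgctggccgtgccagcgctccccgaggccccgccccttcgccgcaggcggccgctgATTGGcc
Top2a (chr11:99024190-99024439, minus strand): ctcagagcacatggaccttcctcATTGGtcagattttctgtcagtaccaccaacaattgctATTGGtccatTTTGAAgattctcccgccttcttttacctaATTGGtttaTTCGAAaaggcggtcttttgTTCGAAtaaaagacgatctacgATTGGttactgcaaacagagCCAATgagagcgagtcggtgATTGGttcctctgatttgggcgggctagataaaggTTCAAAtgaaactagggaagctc
Mki67 (chr7:135716380-135716629, minus strand): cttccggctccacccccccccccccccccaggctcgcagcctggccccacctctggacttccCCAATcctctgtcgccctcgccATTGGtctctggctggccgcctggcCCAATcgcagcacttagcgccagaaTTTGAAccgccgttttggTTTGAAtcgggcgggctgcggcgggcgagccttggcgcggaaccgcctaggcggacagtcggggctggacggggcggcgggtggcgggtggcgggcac
Ccnb2 (chr9:70421555-70421804, minus strand): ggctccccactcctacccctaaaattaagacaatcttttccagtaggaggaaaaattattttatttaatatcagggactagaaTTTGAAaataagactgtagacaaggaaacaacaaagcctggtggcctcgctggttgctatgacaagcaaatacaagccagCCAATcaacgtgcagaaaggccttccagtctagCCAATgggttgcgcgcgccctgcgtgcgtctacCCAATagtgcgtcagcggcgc
The Kif23 window held 0 CHR words and 1 CCAAT box, next to the gene start. The Top2a window held 4 CHR words and 6 CCAAT boxes, the Mki67 window 2 and 3, and the Ccnb2 window 1 and 3.

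The enzymes of nucleotide synthesis and the replication clamp were all lower in the mean of the bleomycin libraries, and none of the 5 passed (median log2 -0.32). Rrm1, the large subunit of ribonucleotide reductase, had 1886, 1674 and 1854 normalized reads in bleomycin replicates 1, 2 and 5, against 2281, 2169.7 and 2295 in saline replicates 1, 2 and 3. Its groups did not overlap (log2 -0.32 ± 0.11 SE, limma adjusted p = 0.0893). Rrm2, the small subunit, which is made in S phase, had 1210.0, 972 and 1042 normalized reads in bleomycin libraries, against 1169.8, 1446 and 1107 in saline libraries, and its groups overlapped. Pcna had 5953, 4740.0 and 4843 normalized reads in bleomycin libraries, against 6086, 6725 and 7228 in saline libraries. Bleomycin replicate 1 was only just below saline replicate 1, and the difference did not pass (log2 -0.37 ± 0.13 SE, limma adjusted p = 0.1, 0.0268 without bleomycin replicate 1). Tyms, which makes thymidylate, had 409, 326 and 345 normalized reads in bleomycin libraries, against 389, 589 and 636 in saline libraries. Bleomycin replicate 1 and saline replicate 1 were close together there and the other libraries far apart (log2 -0.55, limma adjusted p = 0.131, 0.0261 without saline replicate 1). Tk1, the salvage enzyme thymidine kinase, had 788, 599 and 634 normalized reads in bleomycin libraries, against 785, 811 and 881 in saline libraries, with bleomycin replicate 1 level with saline replicate 1.

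Among the genes of the G1 to S transition other than E2f1, the cyclins E had log2 fold changes of opposite sign, and none passed. Ccne2 had 233, 167 and 174 normalized reads in bleomycin replicates 1, 2 and 5, against 251, 303 and 238 in saline replicates 1, 2 and 3 (log2 -0.47 ± 0.20 SE, limma adjusted p = 0.174). Ccne1 had 241, 233 and 221 normalized reads in bleomycin libraries, against 166, 241 and 172 in saline libraries, where saline replicate 2 was the highest of the 6 libraries (log2 0.28 ± 0.20 SE, limma adjusted p = 0.437). Their partner Cdk2 had 1108, 1049 and 1081 normalized reads in bleomycin libraries, against 1152, 1243 and 1134 in saline libraries, a small gap between groups that did not overlap (log2 -0.12, limma adjusted p = 0.559).

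The cyclins and the kinase that carry a cell through G2 into mitosis showed the smallest differences, with a median log2 of -0.09 and 0 of 4 called. Ccna2, cyclin A, had 800.4, 776 and 826 normalized reads in bleomycin replicates 1, 2 and 5, against 755, 839 and 811 in saline replicates 1, 2 and 3. The groups lay on top of each other, with a log2 fold change of -0.001 and a 95% interval from -0.27 to 0.27. Cdk1, the mitotic kinase, had 719.5, 642 and 539 normalized reads in bleomycin libraries, against 640.3, 698 and 668 in saline libraries (log2 interval -0.42 to 0.24). Of the cyclins B, which bind Cdk1, Ccnb1 averaged 427 ± 84.3 normalized reads in bleomycin libraries and 453 ± 27.5 in saline libraries, with overlap. Ccnb2 averaged 609 ± 11.9 in bleomycin libraries and 765 ± 102 in saline libraries (SD, n = 3 each), and its groups did not overlap (log2 -0.32, limma adjusted p = 0.191).

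Of the mitotic kinases and their partners, Tpx2 passed and 5 did not (median log2 -0.21). Plk1, the polo-like kinase of mitotic entry and exit, averaged 263 ± 38.6 normalized reads in bleomycin libraries and 291 ± 38.2 in saline libraries, with overlap. Aurka, the kinase that Tpx2 activates at the spindle poles, averaged 289 ± 25.9 in bleomycin libraries and 339.8 ± 39.7 in saline libraries, also with overlap. Aurkb, Birc5 and Cdca8 encode parts of the chromosomal passenger complex, which corrects wrong attachments of chromosomes to the spindle. Aurkb averaged 371 ± 38.8 in bleomycin libraries and 424 ± 26.4 in saline libraries. Cdca8, which encodes borealin, had 398, 375 and 359 in bleomycin replicates 1, 2 and 5, against 479, 452 and 534 in saline replicates 1, 2 and 3, without overlap (log2 -0.37 ± 0.14 SE, limma adjusted p = 0.132). Birc5, which encodes survivin, had 1029, 661 and 761 in bleomycin libraries, against 726, 844 and 851 in saline libraries. Bleomycin replicate 1 was the highest of the 6 libraries for Birc5 and the other bleomycin libraries were on either side of the lowest saline library, and the mean log2 difference was near 0 (interval -0.41 to 0.40).

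The spindle checkpoint genes had the most negative median of the groups, -0.52, and 0 of 4 passed. Bub1, the checkpoint kinase of the kinetochore, had 242, 237 and 256 normalized reads in bleomycin replicates 1, 2 and 5, against 331, 359.6 and 350.0 in saline replicates 1, 2 and 3. Its groups were tight and apart, and it lay just outside the threshold (log2 -0.50 ± 0.14 SE, limma adjusted p = 0.0549, edgeR adjusted p = 0.054, DESeq2 adjusted p = 0.021). Bub1b, which encodes the checkpoint protein BubR1, had 1132, 1418 and 1599.8 in bleomycin libraries, against 1810.1, 3243 and 1733 in saline libraries. Saline replicate 2 stood far above the other saline libraries. Bub1b had the most negative log2 fold change of the 36 genes and a wide interval (-1.22 to -0.10, limma adjusted p = 0.125, edgeR adjusted p = 0.112, DESeq2 adjusted p = 0.039). Without saline replicate 2 its log2 fold change was -0.37, and that of Cdc20, at -0.67, was the most negative. Cdc20, which the checkpoint restrains and which activates the anaphase promoting complex, had 266, 296 and 251 in bleomycin libraries, against 364, 330.3 and 507 in saline libraries (limma adjusted p = 0.113). Ube2c, a ubiquitin-conjugating enzyme of that complex, averaged 599 ± 58.1 in bleomycin libraries and 648 ± 26.9 in saline libraries, with overlap.

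Of the centromere and kinetochore genes, Cenpa was the exception in direction. Cenpa encodes the histone H3 variant that marks centromeres, and had 681, 643 and 706 normalized reads in bleomycin replicates 1, 2 and 5, against 542, 364 and 594 in saline replicates 1, 2 and 3. All bleomycin libraries were above all saline libraries, and saline replicate 2 was low, but the difference did not pass (log2 0.47 ± 0.19 SE, limma adjusted p = 0.168). Without saline replicate 2 the log2 fold change of Cenpa was 0.25. Nuf2 and Ndc80 encode partners in the complex that grips microtubule ends. Nuf2 had 401, 381 and 410.3 in bleomycin libraries, against 466, 492 and 519 in saline libraries (log2 -0.31, limma adjusted p = 0.186). Ndc80 had 278, 292 and 268 in bleomycin libraries, against 314, 382 and 359.5 in saline libraries (log2 -0.33, limma adjusted p = 0.221), and neither of these genes overlapped between groups. Cenpe, a kinetochore motor, had 322, 460.4 and 489.6 in bleomycin libraries, against 554, 472 and 507 in saline libraries. Cenpf had 206, 291 and 360.3 in bleomycin libraries, against 365, 265 and 258 in saline libraries. Bleomycin replicate 1 was the lowest of the 6 libraries for both, and their groups overlapped.

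The spindle motors and midzone proteins had a median log2 of -0.37, with Kif23 called and 4 not. Kif11, the motor that pushes spindle poles apart, had 433, 509.8 and 502 normalized reads in bleomycin replicates 1, 2 and 5, against 734, 616 and 532 in saline replicates 1, 2 and 3, without overlap (limma adjusted p = 0.184). Prc1, which crosslinks the midzone microtubules on which Kif23 acts, had 303, 369 and 379 in bleomycin libraries, against 547, 527 and 403 in saline libraries. Saline replicate 3 was close to the highest bleomycin library (log2 -0.48 ± 0.17 SE, limma adjusted p = 0.117). Nusap1, a microtubule-binding protein of the spindle, had 557, 724 and 753 in bleomycin libraries, against 907, 801 and 819.8 in saline libraries, and its groups did not overlap. Kif20a, another midzone motor, had 211, 345 and 375 in bleomycin libraries, against 365, 311 and 271 in saline libraries, with bleomycin replicate 1 far below the rest and bleomycin replicate 5 the highest.

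Of the chromosome structure genes, Top2a was called. Ncapg, a subunit of condensin I, which compacts chromosomes, had 196, 199 and 197 normalized reads in bleomycin replicates 1, 2 and 5, nearly the same value each time, against 281, 243 and 259.8 in saline replicates 1, 2 and 3 (log2 -0.40 ± 0.16 SE, limma adjusted p = 0.143). Mki67 had 2470.3, 3069.9 and 3623 in bleomycin libraries, against 3882, 3643 and 3182 in saline libraries. Its groups overlapped, with the highest bleomycin library inside the saline range, and it did not pass (log2 -0.24 ± 0.16 SE, limma adjusted p = 0.407). The log2 fold change of Mki67 was -0.09 without bleomycin replicate 1 and -0.37 without bleomycin replicate 5.

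**Figure D2:**
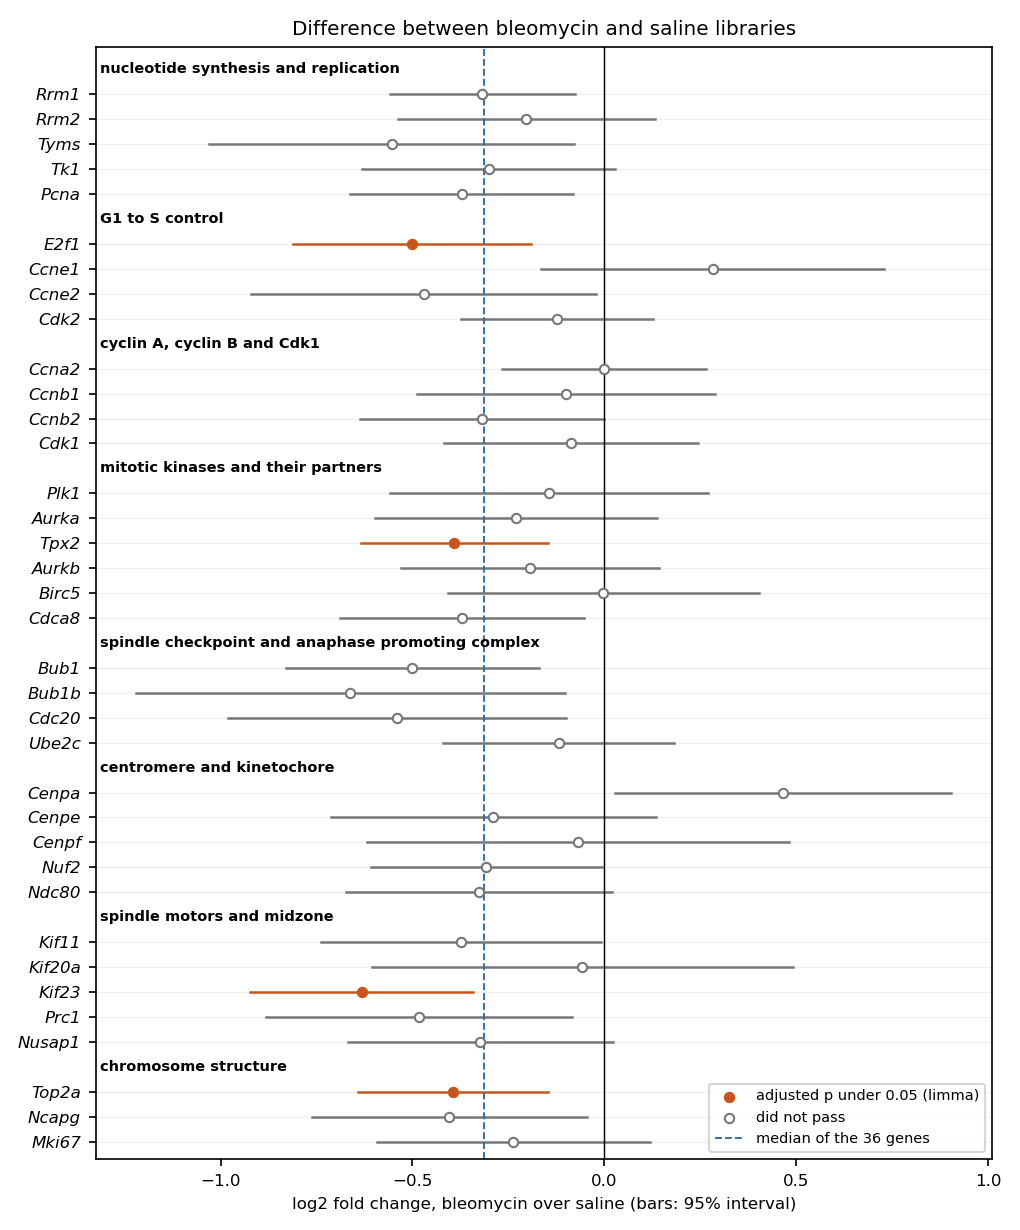
Log2 fold change (bleomycin over saline) of each of the 36 genes with its 95% interval, by role. Filled orange points are the 4 genes that passed (Kif23, E2f1, Tpx2 and Top2a), open points did not, the dashed line is the median of the 36 genes (-0.31), and Cenpa and Ccne1 are the 2 genes with points right of 0.

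The median over the 36 genes was lower in each bleomycin library than in any saline library. Against the mean of the saline libraries, the median log2 difference over the 36 genes was -0.33, -0.35 and -0.29 in bleomycin replicates 1, 2 and 5, against -0.03, 0.00 and -0.01 in saline replicates 1, 2 and 3. Saline libraries are part of that mean, so their values lie near 0 by construction. Over all genes tested, with 1 added to each value, the median was -0.001, -0.02 and -0.02 in bleomycin replicates 1, 2 and 5. It was 0.002, -0.009 and -0.008 in saline replicates 1, 2 and 3. The summed level of the 36 genes was 29926, 28815 and 30157 normalized reads in bleomycin replicates 1, 2 and 5, against 36032, 38123 and 36204 in saline replicates 1, 2 and 3. Bleomycin replicates 1, 2 and 5 were the lowest of the 6 libraries in 15, 13 and 5 genes, against 2, 1 and 0 genes for saline replicates 1, 2 and 3. Bleomycin replicate 1 nevertheless differed from the other bleomycin libraries in which genes were low. Against the mean of bleomycin replicates 2 and 5, its log2 value was 0.54 for Birc5, 0.45 for Ccne2, 0.35 for Tk1 and 0.31 for Pcna. It was -0.43 for Mki67, -0.56 for Cenpe and -0.65 for Cenpf, which are long genes, and the lowest value was -0.77 for Kif20a. Annotated exon length did not order all genes: Rrm1, the second longest by this measure, was at 0.10, Top2a at -0.10 and the short Plk1 at -0.33. Lengths of the transcripts present were not measured and may order the genes differently. Over the 36 genes the Spearman correlation of exon length with a library's difference from its group was -0.35, 0.23 and 0.47 in bleomycin replicates 1, 2 and 5, against 0.33, 0.01 and -0.29 in saline replicates 1, 2 and 3. Over 13487 genes it was -0.40, 0.30 and 0.32 in bleomycin replicates 1, 2 and 5, against 0.33, -0.05 and -0.31 in saline replicates 1, 2 and 3. They are given as a description, since genes of a library share its preparation, and their part in the results was not tested beyond a fit with each library's length trend removed, in which 7 of the 36 genes were called lower (Pcna, E2f1, Tpx2, Bub1, Kif23, Prc1 and Top2a), with 685 of 13487 genes called lower in all.

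**Figure D3:**
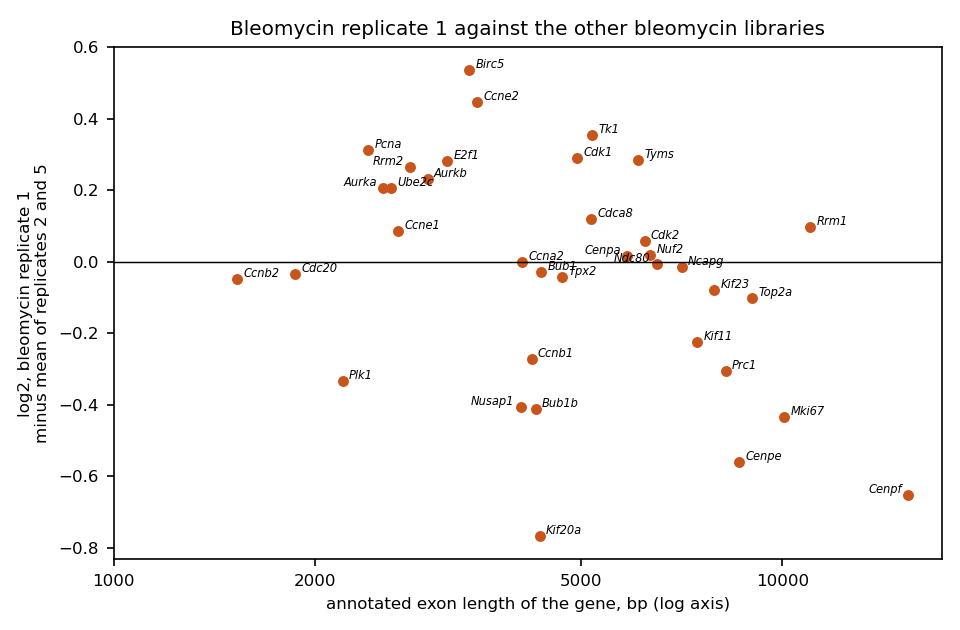
Log2 value of bleomycin replicate 1 minus the mean of bleomycin replicates 2 and 5 (vertical axis) against annotated exon length in bp (horizontal log axis), 1 point for each of the 36 genes. Birc5 and Ccne2 are the highest points and Kif20a, Cenpf and Cenpe the lowest.

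Other genes of DNA synthesis and mitosis also had mostly negative log2 fold changes. Of 39 other S phase genes tested, 8 fell (20.5%) and 0 rose, with 35 negative log2 fold changes (89.7%) and a median of -0.38. The background over all genes tested was 3.9% called lower, 9.76% called higher and 51.3% with a negative log2 fold change. Pole, the catalytic subunit of the leading strand polymerase, had 187, 203 and 225 normalized reads in bleomycin replicates 1, 2 and 5, against 404, 397 and 383 in saline replicates 1, 2 and 3, and its groups lay far apart (log2 -0.94 ± 0.15 SE, limma adjusted p = 0.00446). Uhrf1, which brings the maintenance DNA methyltransferase to newly copied DNA, fell by 40.7% (limma adjusted p = 0.00769). Lig1, which joins Okazaki fragments, fell by 37.9% (limma adjusted p = 0.0135). The other 5 were the polymerase and primase genes Pold1, Pola1 and Prim1, the histone chaperone gene Asf1b and Rpa1, a subunit of the single-strand binding protein, which are named here with their values seen. Of 55 other mitosis genes, 4 fell (7.27%, beside the background of 3.9%) and 0 rose, with 52 negative log2 fold changes (94.5%) and a median of -0.31. Anln, which encodes the contractile ring protein anillin, had 574, 581 and 583 normalized reads in bleomycin replicates 1, 2 and 5, against 1424, 1104 and 1024 in saline replicates 1, 2 and 3. It was lower in each bleomycin library (log2 -1.02 ± 0.15 SE, limma adjusted p = 0.00283). Cit, the citron kinase of the midbody, fell by 45.2% (limma adjusted p = 0.0145). Mad2l1, a checkpoint protein that binds Cdc20, fell by 31.6% (limma adjusted p = 0.0435), and the fourth gene was Cenpn, also named with its value seen. Pole, Uhrf1 and Anln passed with any 1 library left out. Lig1 lost its call without bleomycin replicate 2 (adjusted p = 0.0719) or bleomycin replicate 5 (0.0735), Cit without bleomycin replicate 2 (0.0621), and Mad2l1 without bleomycin replicate 2 (0.173), bleomycin replicate 5 (0.172), saline replicate 2 (0.0883) or saline replicate 3 (0.131), or with TMM rescaling (0.0581).

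**Figure D4:**
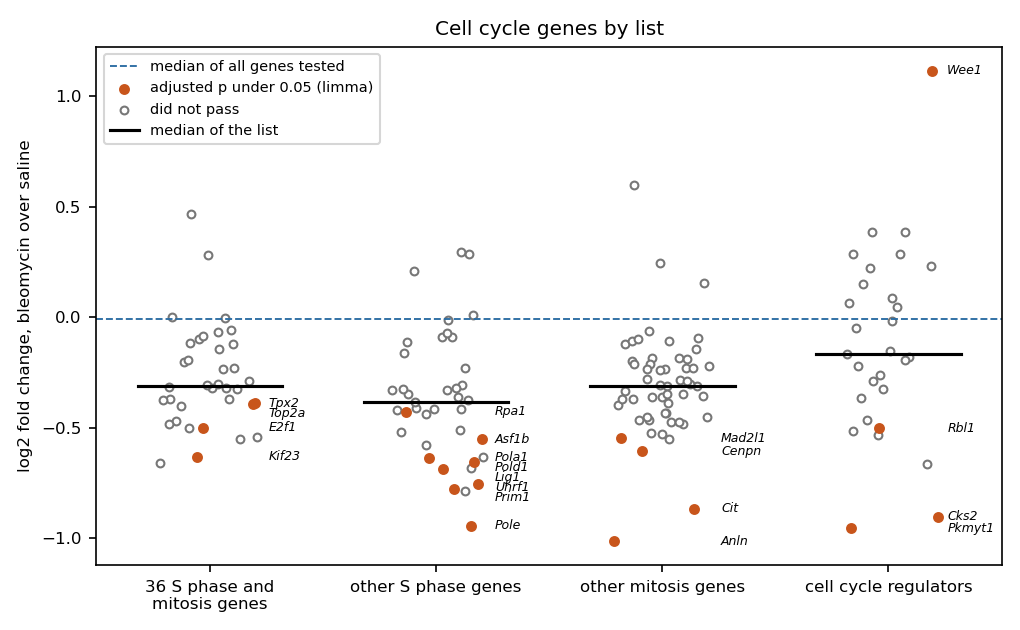
Log2 fold change (bleomycin over saline) of the 36 S phase and mitosis genes and of 3 other lists of cell cycle genes, 1 point a gene. Orange points passed and are named at the right of their column from high to low, black bars are list medians (-0.31, -0.38, -0.31 and -0.17) and the dashed line is the median of all genes tested (-0.01).

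Of the kinases that restrain Cdk1, Pkmyt1 was called lower and Wee1 higher, and the Wee1 call was lost in several settings. Of 29 cell cycle regulators tested, 1 rose and 3 fell (10.3%), with a median of -0.17. Over all genes tested 9.76% were called higher and 3.9% lower. Pkmyt1, a membrane-bound kinase that puts inhibitory phosphates on Cdk1, had 345, 316 and 330.1 normalized reads in bleomycin replicates 1, 2 and 5, against 656, 616 and 654 in saline replicates 1, 2 and 3. Its groups were tight and apart, and it fell by 48.5% (log2 -0.96 ± 0.13 SE, limma adjusted p = 0.00194). Wee1, the nuclear kinase that puts an inhibitory phosphate on Cdk1, had 274, 247 and 260.3 in bleomycin libraries, against 162, 140.2 and 75.3 in saline libraries, and saline replicate 3 was the lowest. Wee1 rose by 1.12 ± 0.28 SE on the log2 scale (limma adjusted p = 0.0332), a call lost on leaving out bleomycin replicate 1 (0.0711), bleomycin replicate 2 (0.0941) or bleomycin replicate 5 (0.111), or with quantile normalization (0.0504). With no intensity trend, or with a replicate block, 0 regulators were called higher, so the Wee1 call was lost there too. Cks2, a small subunit of Cdk complexes, had 774, 487 and 483 in bleomycin libraries, against 876, 957 and 1426 in saline libraries, with bleomycin replicate 1 close to saline replicate 1 (log2 -0.90 ± 0.24 SE, limma adjusted p = 0.0406). Its call was lost without bleomycin replicate 2 (0.144), bleomycin replicate 5 (0.151), saline replicate 2 (0.0702) or saline replicate 3 (0.117). The third gene that fell was Rbl1, which encodes the pocket protein p107 of the DREAM complex and is named with its value seen. Foxm1, Mybl2, E2f7 and E2f8, transcription factors named whatever their result, did not pass, whereas E2f1 among the 36 genes did. Foxm1 had 312, 333 and 423 normalized reads in bleomycin replicates 1, 2 and 5, against 621, 434 and 432 in saline replicates 1, 2 and 3 without overlap (log2 -0.47, limma adjusted p = 0.179). Mybl2, which encodes B-Myb, had 122, 136 and 128 in bleomycin libraries, against 207, 192 and 157 in saline libraries, without overlap (log2 -0.52, limma adjusted p = 0.124). The repressors E2f7 and E2f8, which switch S phase genes off again, had log2 fold changes of -0.53 and -0.18 (limma adjusted p = 0.257 for E2f7 and 0.723 for E2f8).

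Markers of cell types differed between the groups alongside these genes. Recovered reads numbered 28916201 to 37147983 in bleomycin libraries and 27654799 to 29899133 in saline libraries. The summed level of 10 resident alveolar macrophage markers was 325287 to 428775 in bleomycin libraries and 560543 to 709020 in saline libraries, with 6 of the 10 called lower and 0 higher. None of the 10 was at 0 in any library, so the labelled cell type was present in both groups. The summed level of 5 monocyte markers was 1435 to 2744 in bleomycin libraries and 223 to 236 in saline libraries, with 3 of the 4 tested called higher. T cell markers other than Cd2, which is high in all 6 libraries, summed to 149 to 500 in bleomycin libraries and 18.6 to 23.9 in saline libraries, with 7 of 7 called higher. Cd2 itself was called lower, at 7042 to 10710 in bleomycin libraries and 12808 to 15559 in saline libraries. With Cd2 the T cell sum was 7542 to 10859 in bleomycin libraries and 12827 to 15582 in saline libraries. No monocyte or T cell marker was at 0 in all libraries of a group. Their part in the levels of the 36 genes was not tested.

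Some of the 36 genes share exon bases with a neighbour on the opposite strand, and the strand setting of the counting is not given, so reads of the neighbour may be included. These are Tk1, Ccne2, Cdk2, Ccna2, Plk1, Cdca8, Cdc20, Ube2c, Kif20a, Prc1, Nusap1 and Ncapg. Of the 4 called genes, Top2a shares 122 bp with the predicted gene Gm23451 on its own strand, and Kif23, E2f1 and Tpx2 share none.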

How the data were processed

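Per the labels' protocols, total RNA of cells that adhered after lavage was sequenced. The tools named in the submitters' processing notes are STAR 2.5.2b, HTSeq 0.6.0, DESeq2 (version given as 2.1.14.1) and bcl2fastq 2.18.0.12, with mouse build mm10. For what each did, the annotation and the strand setting, nothing is given in the sources used here. As deposited, each value is a normalized signal, a read count divided by 1 size factor per library: dividing by the value of 1 read gave whole reads for 100% of values above 0 (within 0.05 of a read). Recovered totals were 27654799 to 37147983 reads, and 3 reads equal a value of 2.59 to 3.3, a limit of counting error only.

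Symbols were found for 22873 genes, and positions and exon lengths came from GENCODE M21 (GRCm38). The 13512 genes that reached a value of 10 in 3 or more libraries were tested with limma 3.58.1 in R 4.3.3, two-sided, with an intensity trend and no other term, on log2(value + 1). A fold change on this scale understates changes of low genes. The function was tested on simulated data. The settings varied were the pseudocount (0.5 and 5), the filter (none, or a minimum of 50) and the scaling (TMM, quantile normalization). Other fits had no trend, used edgeR 4.0.16 or DESeq2 1.42.0 on recovered reads, had a replicate block or left out a library. A fit with the exon length trend of each library removed was added after the data were seen, as were marker sums without Cd2, Epcam and Cdh1.

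Named were all 36 genes, of each other list the 3 genes with the smallest p and the 1 with the most negative fold change, and E2f7, E2f8, Foxm1 and Mybl2. Markers of each cell type were summed, and some lists are not reported here. The members and lists were chosen with earlier results of these data known.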

Additional observations from a re-analysis of the deposited data

How the results depend on the processing

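Of 612 values of the 36 genes under the alternatives, 553 kept their direction and their side of the threshold, 29 lost a call, 10 gained one and 20 changed sign. All 29 lost calls were of the 4 called genes. Most of the values that kept their side were of the 32 genes that did not pass, so the 553 do not measure how stable the calls were. The count of the 36 genes called lower was 4. It was 2 with no filter or no intensity trend, 1 with TMM, 5 with quantile normalization, 4 with edgeR, 6 with DESeq2 and 7 with the length trend removed, and 0 to 3 on leaving out a library (0 without bleomycin replicate 5). The count called higher was 0 in each of these settings. The median of the 36 genes minus that of all genes was -0.36 to -0.25 throughout, and quantile normalization moved the median of all genes to -0.10. Other S phase genes called lower numbered 8, 5 with no trend and 2 to 10 on leaving out a library, and 1 was called higher with the length trend removed. Other mitosis genes called lower numbered 4, 2 with TMM, 8 with quantile normalization and 1 to 6 on leaving out a library. Of these genes 1 was called higher with DESeq2 or the length trend removed, and 0 to 1 on leaving out a library. Regulators called higher numbered 1, 0 with quantile normalization or no trend, 2 with the length trend removed and 0 to 1 on leaving out a library. Regulators called lower numbered 3, 1 with no trend and 1 to 3 on leaving out a library. Over all genes 527 were lower and 1319 higher. Those lower numbered 461 with no filter, 354 with no trend, 475 with TMM, 752 with quantile normalization, 518 with edgeR, 769 with DESeq2 and 685 with the length trend removed, and 182 to 629 lower and 759 to 1609 higher on leaving out a library. The causes were not tested.

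Genes with a difference near 0 changed sign. Ccna2 was at 0.019 with TMM, at 0.022 with the length trend removed and at -0.044 to 0.032 on leaving out a library. Birc5 was at 0.017 with TMM and edgeR, at 0.019 with DESeq2, at 0.031 with the length trend removed and at -0.18 to 0.14 on leaving out a library. On leaving out a library Cdk1 was at -0.18 to 0.024, Cenpf at -0.25 to 0.15, Kif20a at -0.21 to 0.20 and E2f8 at -0.37 to 0.0086.

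Replicate numbers 1 and 2 occur in both groups, and the deviations of same-numbered libraries from their group means correlated at -0.20 and 0.02 over genes, so the numbers were not taken to pair libraries. With a replicate block, which rests on 2 libraries a group, 1 of the 36 genes was called lower (Bub1b), 1 other S phase gene, 1 other mitosis gene, 0 regulators in either direction and 194 genes in all, and Birc5 was at 0.076 and Cdk1 at 0.024.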

Other observations

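Markers of other cell types that a lavage can hold were also measured, as sums of normalized reads over each list. Natural killer cell markers summed to 61.1 to 128 in bleomycin libraries and 7.61 to 18 in saline libraries, where Nkg7 was at 0, and 2 of the 2 tested were called higher. Neutrophil markers summed to 2925 to 3213 in bleomycin libraries and 1464 to 2862 in saline libraries, with 2 of the 4 tested called higher. Dendritic cell markers summed to 709.6 to 1296 in bleomycin libraries and 219 to 543 in saline libraries, with 3 of the 5 tested called higher. Epithelial markers without Epcam and Cdh1, which were high in all 6 libraries, summed to 848 to 1872 in bleomycin libraries and 198 to 325 in saline libraries, with 5 of 6 called higher. With those genes the sums were 4500.4 to 4949.6 in bleomycin libraries and 5852 to 7023 in saline libraries, with 5 of 8 called higher and 1 lower. The gene called lower was Epcam, at 1154 to 1965 in bleomycin libraries and 3983 to 4871 in saline libraries. All T cell markers, Cd2 included, summed to 7542 to 10859 in bleomycin libraries and 12827 to 15582 in saline libraries, with 7 of 8 called higher and Cd2 called lower. Fibroblast markers summed to 219 to 849 in bleomycin libraries and 35.3 to 321 in saline libraries, where Lum was at 0, with 2 of the 5 tested called higher. Endothelial markers summed to 30.5 to 81.9 in bleomycin libraries and 6.52 to 20.6 in saline libraries, where Kdr and Tie1 were at 0, with 0 of the 1 tested called. Ncr1 and Ly6g were not analysed here. Of the bleomycin libraries, replicate 1 had the lowest sums of monocyte, T cell (without Cd2), natural killer cell, neutrophil, dendritic cell, epithelial (without Epcam and Cdh1) and endothelial markers, and the highest sums of resident alveolar macrophage and fibroblast markers. Their part in the levels of the S phase and mitosis genes was not tested.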
